A study of Homo sapiens with 6 samples.

Results

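Keratin genes encode the intermediate filament proteins of epithelial cells, and their transcripts were followed here in T24, a long-established human cell line of bladder urothelial carcinoma. They were chosen by name, as every row whose symbol is KRT followed by a number and at most 1 letter from A to C, which leaves out pseudogenes and antisense RNAs. This gave 55 genes among 58735 gene rows, 29 of type I and 26 of type II. The libraries were 3 from cells given TGF-β1 (written TGF-b1) at 10 ng/ml for 48 h and 3 from control cells without it. All 6 came from the same line, with a genotype given as wild type. TGF-β1 is a secreted cytokine and a standard inducer of epithelial-to-mesenchymal transition in culture. The labels do not say whether replicates were separate cultures, so the p-values below speak only of library-to-library spread, which may be technical.

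A keratin filament is an obligate partnership: 1 acidic type I and 1 basic type II protein form a coiled-coil heterodimer, and these assemble into filaments that run from the nucleus to desmosomes and hemidesmosomes. Pairs mark the kind of epithelium. KRT8 with KRT18, often joined by KRT7 and KRT19, is the pair of simple epithelia and of urothelium. KRT5 with KRT14 marks basal cells, KRT13 intermediate urothelial layers, and KRT20 the umbrella cells of the urothelial surface. Loss of keratins in exchange for vimentin, encoded by VIM, is a textbook feature of epithelial-to-mesenchymal transition.

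Levels are FPKM, fragments scaled to exon length and to a size set for each library, so they can be compared between genes per length. Between 20703945 and 23678772 fragments per library fell on genes with a unique name. The size used in the deposited FPKM was not this count. It was 22384398 and 22629455 in control 1 and 2, under their 22565599 and 23471500 such fragments, and above the count in every other library. Scaled to total assigned fragments instead, the limma log2 change of KRT18 was -0.45 and the median over all genes 0.04, against -0.49 and 0.01 as deposited. A count of 0 allows up to 3 fragments at 95% confidence, with counting error alone considered, which for a transcript of 2000 bp is 0.0625 to 0.0701 FPKM. Genes were tested where at least 3 libraries reached 1 FPKM, which left 11363 genes. The test was limma on log2(FPKM + 1), a scale that understates changes of low genes, with p-values adjusted by Benjamini-Hochberg over all of them and a threshold of 0.05. In bulk libraries, fewer cells with a transcript and less of it per cell cannot be told apart.

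The libraries carried a narrow keratin repertoire. Of the 55 genes, 7 passed the filter: the simple-epithelial genes KRT8, KRT18 and KRT7, and KRT80, KRT10, KRT86 and KRT15. Another 35 had 0 fragments in all 6 libraries, and the remaining 13 had at least 1 fragment but stayed under the filter. Among the 35 were KRT19, KRT5, KRT14 and KRT13. For KRT19 the 0 allows 0.0535 to 0.060 FPKM per library, and for KRT5 0.0291 to 0.0327 FPKM. KRT20 had 1 fragment in all, in a control library. None of the 8 keratins of the inner root sheath had a fragment, and of 17 hair keratins 6 had.

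The label of urothelial carcinoma was set beside marker genes. Of 12 urothelial markers 5 passed the filter: ELF3, FOXA1, PPARG, UPK1A and UPK1B, and their list summed to 8.26 to 8.89 FPKM in TGF-b1 libraries and 9.71 to 10.9 FPKM in control libraries. KRT5 and UPK3A were at 0, and GATA3 had 5 fragments in TGF-b1 and 11 in control libraries. Of 9 general epithelial markers KRT8, KRT18, KRT7 and CLDN4 passed, and KRT19 was at 0. CLDN4 is the 1 of these 5 that is not a keratin. CDH1, the E-cadherin gene, averaged 0.0327 FPKM with TGF-b1 and 0.0286 FPKM in control, EPCAM 0.227 and 0.221 FPKM and ESRP1 0.305 and 0.295 FPKM, and GRHL2 had 0 fragments in TGF-b1 and 2 in control libraries. None of 4 leukocyte or 3 endothelial markers passed, and of 6 fibroblast markers COL1A1 did, with COL1A2 and PDGFRA at 0. COL1A1 reached 1 FPKM in the TGF-b1 libraries only, so it passed through the group in which it is high. Its log2 change in limma was 0.94 (adjusted p = 0.0011). The fibroblast list summed to 2.08 to 2.497 FPKM in TGF-b1 and 0.636 to 0.778 FPKM in control libraries, nearly all of it COL1A1, and its part in the keratin levels was not tested.

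KRT18 and KRT8 held most of the keratin message. Together they made up 83.6, 84.0 and 82.5% of the summed keratin FPKM in TGF-b1 libraries 1 to 3, and 86.3, 87.4 and 85.7% in control libraries 1 to 3. KRT80, a type II keratin found widely in epithelia, came next, followed by KRT7, the type II keratin of glandular and transitional epithelia, and KRT10, a type I keratin best known from suprabasal epidermis. KRT86, a type II hair keratin, and KRT15, a type I keratin of basal cells and the hair follicle bulge, stood lowest. Neighbours in this order were apart by more than their spread, except KRT10 and KRT7 in TGF-b1 libraries, at 10.4 ± 1.23 and 10.0 ± 1.42 FPKM (SD, n = 3). Their closeness rests on the gene length used, as does the order of KRT18 and KRT8, described further down. Per length of the longest coding transcript KRT10 stood at 10.5 ± 1.24 FPKM and KRT7 at 23.4 ± 3.31 FPKM with TGF-b1.

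**Figure D1:**
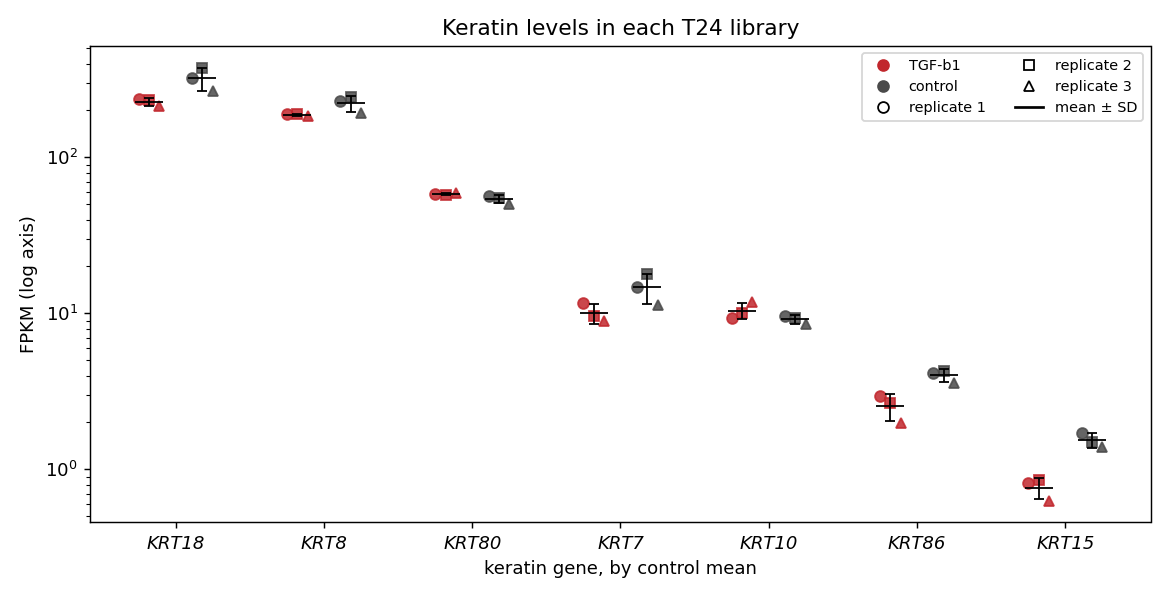
FPKM on a log axis of the 7 keratins past the filter in each library, TGF-b1 in red and control in dark grey, with the replicate number by symbol and the mean ± SD in black (n = 3). For KRT18, KRT8, KRT86 and KRT15 every TGF-b1 library lies under every control library, while KRT10 and KRT7 overlap.

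All 55 genes lie in 2 clusters of GRCh38, 27 on chromosome 12 and 28 on chromosome 17. KRT18 is the 1 type I gene on chromosome 12, next to KRT8. The annotated exons of KRT18 (chr12:52948871-52952901, plus strand) and of KRT8 (chr12:52897187-52949954, minus strand) share 525 bases on opposite strands. The strand setting of the counting is unknown here, and without strand the fragments of that stretch could belong to either gene. KRT80 (chr12:52168996-52192000), KRT7 (chr12:52232520-52252186) and KRT86 (chr12:52249300-52309163) lie in the same cluster, at lower coordinates. KRT10 (chr17:40818117-40822595) and KRT15 (chr17:41513743-41522529) are in the type I cluster.

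Promoter windows of 250 bases before to 50 after the start site were available from RefSeq (GRCh38.p14) for 38 of the 55 keratins. Of the 7 past the filter these were KRT8 and KRT10, and 4 windows are shown to set genes with unlike values side by side. KRT8 was lower in every TGF-b1 library and KRT10 was not, and neither passed the threshold in limma. Of the hair keratins KRT32 and KRT34, both in the type I cluster, KRT32 had fewer fragments in every TGF-b1 library and KRT34 had the same total in both groups. Both were under the filter and untested. The windows were picked by these values, and a part of the motifs in the levels was not tested. Capitals mark the motifs searched on both strands: TATAAA for the core promoter element bound by TBP, TGANTCA for AP-1 factors, GGGCGG for the GC box, CACCTG for an E-box and GTCTAGAC for the palindrome of SMAD factors. None of these overlapped another in the 4 windows.
KRT8 (chr12:52926420-52926719, minus strand): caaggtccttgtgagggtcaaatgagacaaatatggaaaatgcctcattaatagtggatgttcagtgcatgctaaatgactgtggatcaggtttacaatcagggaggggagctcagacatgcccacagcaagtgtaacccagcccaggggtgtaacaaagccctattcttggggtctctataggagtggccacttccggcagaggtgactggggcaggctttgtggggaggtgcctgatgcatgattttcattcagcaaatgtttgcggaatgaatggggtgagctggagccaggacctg
KRT10 (chr17:40822565-40822864, minus strand): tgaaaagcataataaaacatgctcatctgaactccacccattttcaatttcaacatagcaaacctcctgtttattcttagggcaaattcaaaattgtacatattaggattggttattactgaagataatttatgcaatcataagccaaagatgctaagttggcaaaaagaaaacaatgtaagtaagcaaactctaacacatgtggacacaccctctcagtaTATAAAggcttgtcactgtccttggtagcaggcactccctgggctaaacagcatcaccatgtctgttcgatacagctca
KRT32 (chr17:41467337-41467636, minus strand): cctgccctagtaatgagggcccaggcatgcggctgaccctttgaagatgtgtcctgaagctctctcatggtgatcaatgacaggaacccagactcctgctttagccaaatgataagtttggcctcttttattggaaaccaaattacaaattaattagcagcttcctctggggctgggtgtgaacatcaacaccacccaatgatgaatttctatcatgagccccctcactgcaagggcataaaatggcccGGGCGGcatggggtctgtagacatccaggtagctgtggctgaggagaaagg
KRT34 (chr17:41382257-41382556, minus strand): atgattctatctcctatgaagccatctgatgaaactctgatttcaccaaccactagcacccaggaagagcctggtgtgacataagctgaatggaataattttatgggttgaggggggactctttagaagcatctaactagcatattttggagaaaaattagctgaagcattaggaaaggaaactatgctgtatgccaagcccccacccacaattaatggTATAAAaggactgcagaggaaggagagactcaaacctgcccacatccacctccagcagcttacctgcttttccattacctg
KRT10 holds TATAAA beginning 29 bases before the start and KRT34 holds it beginning 31 bases before it, while KRT32 holds GGGCGG across its start and the KRT8 window held none of the 5 motifs. The KRT8 start used by this table lies inside the annotated gene, which has other annotated starts. Of the 38 keratin windows 21 (55.3%) held TATAAA, against 11.5% of 35116 windows of all genes. GGGCGG was in 6 (15.8%), against 45.0% of all windows, and CACCTG in 8 (21.1%), against 20.6% of all. TGANTCA was in 0 of the 38, against 7.71% of all windows, and GTCTAGAC in 0, against 0.202%.

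The comparison asks which keratin transcripts of T24 cells are higher or lower after TGF-β1. KRT15 fell and was the 1 keratin past the threshold, while KRT18, KRT7 and KRT86 stood lower without passing it. The ratio of the mean FPKM, TGF-b1 over control, was 0.498 for KRT15, 0.633 for KRT86, 0.682 for KRT7 and 0.707 for KRT18. KRT80 and KRT10 stood slightly higher. Over all genes tested 1.29% were called lower and 1.14% higher. KRT15 reached 1 FPKM in the control libraries only, so it entered the test through the group in which it is high, and its call must be read with that in mind. Of the other 6 keratins tested 0 passed in limma, and 3 were lower at an unadjusted p under 0.05, against 13.9% of all genes tested.

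Among the simple-epithelial keratins, KRT18 stood at 237, 232 and 212 FPKM in TGF-b1 libraries 1 to 3, against 325, 375 and 265 FPKM in control libraries 1 to 3. Every TGF-b1 library was under every control library, and control 3 was the control nearest to them. The group means were 227 ± 13.4 FPKM with TGF-b1 and 322 ± 55.1 FPKM in control (SD, n = 3), a ratio of 0.707. The log2 change was -0.49 (SE 0.13, adjusted p = 0.079).

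KRT8, the type II partner of KRT18, stood at 188, 191 and 185 FPKM in TGF-b1 libraries and at 232, 243 and 192 FPKM in control libraries. The groups did not overlap, but TGF-b1 2 and control 3 nearly met. The ratio of the means was 0.846 and the log2 change -0.23 (SE 0.11, adjusted p = 0.22). KRT7 stood at 11.6, 9.60 and 8.89 FPKM with TGF-b1 and at 14.8, 17.96 and 11.4 FPKM in control. Here TGF-b1 1 was above control 3, so the groups overlapped, and the log2 change was -0.50 (SE 0.16, adjusted p = 0.11).

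KRT15 stood at 0.813, 0.849 and 0.631 FPKM in TGF-b1 libraries, from 123, 144 and 106 fragments. In control libraries it stood at 1.71, 1.51 and 1.38 FPKM, from 271, 241 and 226 fragments. The groups did not overlap, with means of 0.765 ± 0.117 and 1.53 ± 0.166 FPKM in TGF-b1 and control libraries (SD, n = 3), a ratio of 0.498. The log2 change on the compressed scale was -0.52 (SE 0.11, adjusted p = 0.029). KRT15 entered the test through the control group, in which it is high, so its separation and call are no independent support. The call held in 2 of 6 limma fits with 1 library left out, and the adjusted p was 0.22 without a filter.

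KRT86 stood at 2.97, 2.65 and 1.99 FPKM in TGF-b1 libraries, against 4.16, 4.28 and 3.56 FPKM in control libraries. The groups did not overlap, and the log2 change was -0.51 (SE 0.12, adjusted p = 0.055). KRT86 has close copies: 28.0% of the 100-base windows of its longest coding transcript also occur in transcripts of 3 other genes, 25.4% in KRT81, so its fragments may be split or lost. The longest coding transcripts of the other 6 keratins past the filter had no such shared window. Copies with a mismatch, and exon bases outside those transcripts, were not searched. KRT87P, a transcribed pseudogene inside the span of KRT86, stood at 4.34 ± 0.771 FPKM with TGF-b1 and 3.93 ± 0.472 FPKM in control (SD, n = 3, adjusted p = 0.58).

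KRT80 stood at 58.5, 57.1 and 59.5 FPKM in TGF-b1 libraries and at 56.6, 55.0 and 50.6 FPKM in control libraries. Every TGF-b1 library was above every control library, by little, and the log2 change was 0.11 (SE 0.092, adjusted p = 0.45). KRT10 stood at 9.35, 10.1 and 11.8 FPKM with TGF-b1 and at 9.65, 9.38 and 8.50 FPKM in control. Its groups overlapped, and the log2 change was 0.16 (SE 0.10, adjusted p = 0.33).

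Leaving KRT15 aside, 3 of the 6 tested keratins (KRT18, KRT8 and KRT86) were lower in every TGF-b1 library, against 12.5% of all genes tested, and KRT80 was higher in every one, against 14.6%. Among genes averaging at least 100 FPKM, as KRT18 and KRT8 do, 21.6% were lower in every TGF-b1 library. The median log2 change of the 6 was -0.36, beside 0.01 for all 11363 genes.

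The calls turned on single libraries. Without control 3 the adjusted p of limma was 0.0097 for KRT18, 0.014 for KRT7, 0.015 for KRT15, 0.019 for KRT86 and 0.020 for KRT8. Thus 5 of 7 keratins were called lower, where 16.5% of all genes were. The 5 include KRT15, which entered the test through the group in which it is high. Without TGF-b1 1 the calls were 2, KRT15 and KRT86, where 1.76% of all genes were called lower. Without TGF-b1 2, TGF-b1 3, control 1 or control 2 they were 0, where 0.616, 0.581, 0.387 and 0.669% of all genes were, and the adjusted p of KRT15 was 0.065 to 0.17. The share of reads mapped without a splice junction also set control 3 beside the treated libraries: it was 47.8, 48.2 and 48.8% in TGF-b1 libraries 1 to 3, and 46.6, 46.2 and 48.4% in control libraries 1 to 3. Its part in the keratin levels was not tested.

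Keratin transcripts are also rich in G and C. The mean GC content of their annotated transcripts was 57.3% for KRT18, 57.7% for KRT8, 59.0% for KRT7, 62.0% for KRT86, 57.2% for KRT80, 56.0% for KRT15 and 51.3% for KRT10, against a median of 48.9% over the genes tested. With a trend in GC content and gene length removed from each library, the log2 change was -0.31 for KRT18 (adjusted p = 0.058), -0.31 for KRT7 (0.13), -0.12 for KRT8 (0.34) and -0.23 for KRT86 (0.20). In that limma fit, where 2.56% of all genes were called higher and 1.88% lower, KRT80 rose by 0.26 (adjusted p = 0.039), KRT10 stood at 0.25 (0.10) and KRT15 fell by 0.44 on the log2 scale (0.029). By voom on the recovered fragments KRT15, KRT18, KRT7 and KRT86 were lower (adjusted p = 0.0013, 0.011, 0.028 and 0.025), where 5.83% of all genes were. Tested among genes of at least 5 FPKM alone, where 4.79% were called lower, KRT18 passed (adjusted p = 0.042). Upper-quartile scaling, quantile normalization and scaling to total fragments called 2 keratins lower each, where 1.98, 1.59 and 1.97% of all genes were. Protein-coding genes alone gave 4, where 5.47% were, and no filter gave 0, where 0.0141% were. KRT15, which entered through the group in which it is high, was among the 2 each time and among the 4.

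**Figure D2:**
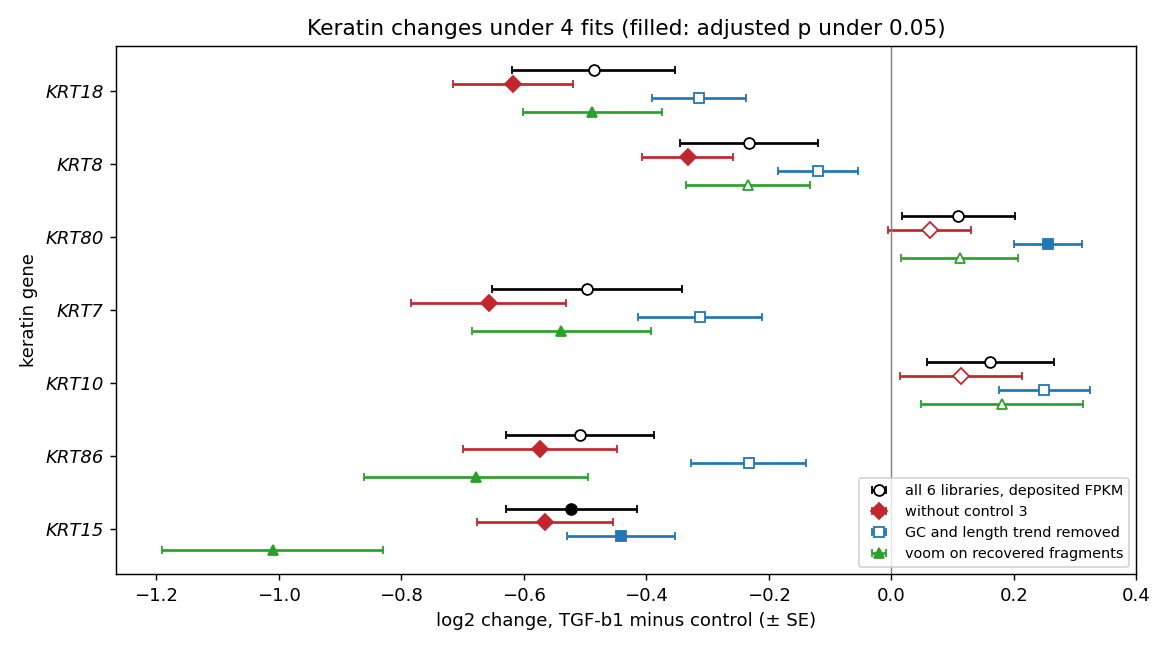
Log2 change with its SE, TGF-b1 minus control, for the 7 keratins past the filter under 4 fits, with filled symbols for an adjusted p under 0.05. KRT18, KRT8, KRT7, KRT86 and KRT15 lie left of 0 and KRT80 and KRT10 right of it in each of the 4, while which of them pass differs from fit to fit.

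The balance between partners was read as ratios within a library, which do not depend on the scaling between libraries. KRT18 over KRT8 was 1.26, 1.22 and 1.15 in TGF-b1 libraries and 1.40, 1.55 and 1.38 in control libraries. The groups did not overlap. The log2 ratio differed by -0.25, and the exact two-sided permutation test gave p = 0.1, the smallest that 3 against 3 allow.

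The order of this pair rests on the gene length used. FPKM divides by all annotated exons, 6881 bases for KRT8 and 3218 for KRT18. Per length of the longest coding transcript, 2437 and 1696 bases, KRT8 stood at 531 ± 8.51 FPKM with TGF-b1 and 627 ± 74.6 FPKM in control, and KRT18 at 431 ± 25.4 and 610.2 ± 104 FPKM (SD, n = 3). On that scale KRT8 was the higher of the pair in TGF-b1 libraries and the control means were within their spread of each other.

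Summed over the 55 genes, keratin FPKM was 509.6, 504 and 481 in TGF-b1 libraries 1 to 3 and 644, 706 and 534 in control libraries 1 to 3. The groups did not overlap, with control 3 nearest to the treated libraries, and the ratio of the means was 0.793. Type I genes summed to 239 ± 12.1 FPKM with TGF-b1 and 333 ± 55.5 FPKM in control. Type II genes summed to 259 ± 3.15 and 295 ± 32.8 FPKM in TGF-b1 and control libraries. Type I genes thus made up 47.9 ± 0.977% of the sum with TGF-b1 and 52.9 ± 1.62% in control (SD, n = 3).

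KRT80 took a larger share where KRT18 took a smaller one. Its share of summed keratin FPKM was 11.5, 11.3 and 12.4% in TGF-b1 libraries and 8.78, 7.79 and 9.48% in control libraries, with no overlap. KRT18 took 46.6, 46.1 and 44.1% with TGF-b1 and 50.4, 53.1 and 49.7% in control. KRT8 took 37.8 ± 0.730% with TGF-b1 and 35.4 ± 0.959% in control, and KRT10 took 2.10 ± 0.315 and 1.47 ± 0.134% in TGF-b1 and control libraries (SD, n = 3). Shares of 1 sum are tied to each other, and no test was made of them. They also rest on the gene length used. Per length of the longest coding transcript, over the 7 keratins past the filter, KRT80 took 6.13 ± 0.306% with TGF-b1 and 4.52 ± 0.446% in control, and type I genes took 41.6 ± 0.981% with TGF-b1 and 46.0 ± 1.497% in control (SD, n = 3).

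**Figure D3:**
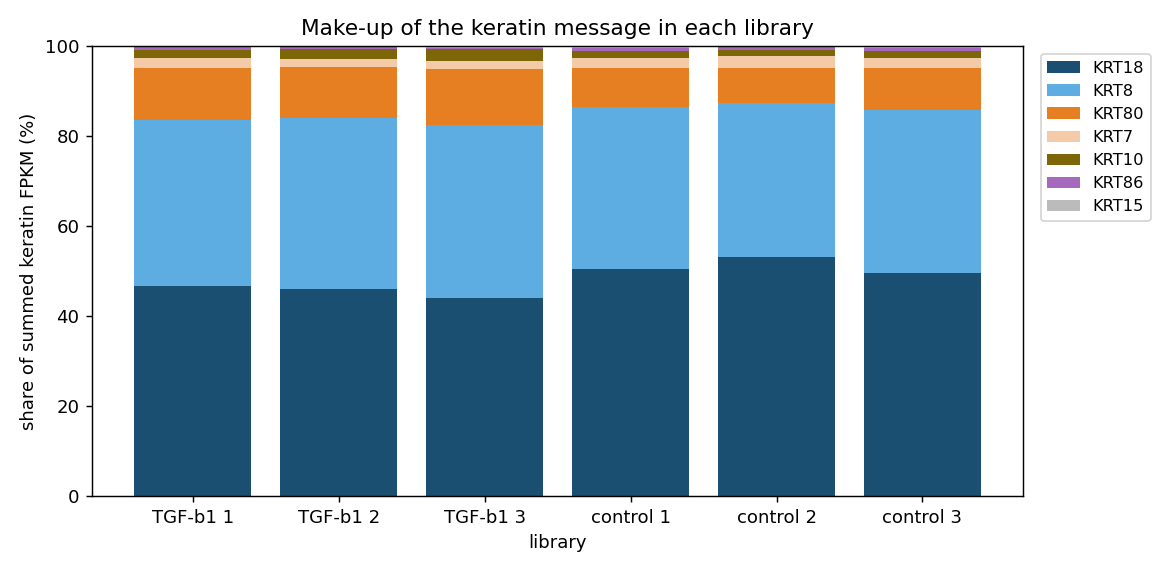
Share of summed keratin FPKM, in percent, taken by each keratin past the filter in each library, TGF-b1 libraries left and control libraries right. KRT18 spans 44.1 to 46.6% in TGF-b1 and 49.7 to 53.1% in control libraries, and KRT80 spans 11.3 to 12.4% in TGF-b1 and 7.79 to 9.48% in control libraries.

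Set against vimentin, the sum of keratin FPKM over VIM FPKM was 4.12, 3.63 and 3.02 in TGF-b1 libraries and 5.23, 5.09 and 4.12 in control libraries, so that TGF-b1 1 and control 3 met. VIM itself stood at 141 ± 17.8 FPKM with TGF-b1 and 130.5 ± 7.91 FPKM in control (SD, n = 3, adjusted p = 0.59).

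Under the filter, 4 keratins averaged at least 0.1 FPKM in a group, and all are hair keratins, the cysteine-rich keratins of the hair shaft. KRT32, a type I member, had 1, 0 and 1 fragments in TGF-b1 libraries 1 to 3 and 12, 6 and 8 in control libraries 1 to 3. The groups did not overlap, and over the group totals of 2 and 26 fragments the TGF-b1 over control ratio was 0.0758, with an exact 95% interval of 0.00872 to 0.303 that covers counting error only. KRT32 reached 0.1 FPKM in the control mean alone, and so is described here through the group in which it is high.

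KRT34, another type I hair keratin, had 0, 8 and 16 fragments with TGF-b1 and 11, 6 and 7 in control, totals of 24 and 24. KRT81, the close copy of KRT86, had 7, 6 and 22 with TGF-b1 and 11, 6 and 13 in control. KRT83 had 7, 1 and 9 with TGF-b1 and 8, 9 and 2 in control. The groups overlapped in all 3 genes, and some libraries of 1 group differed severalfold. The ratio of TGF-b1 to control, with an exact 95% interval for counting error alone, was 0.985 (0.536 to 1.81) for KRT34, 1.15 (0.686 to 1.94) for KRT81 and 0.882 (0.430 to 1.79) for KRT83. The other 9 genes detected under the filter had 1 to 15 fragments over all 6 libraries. KRT17, a type I keratin induced by stress in epithelia, had the 15, of which 11 were in TGF-b1 libraries and 4 in control libraries.

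**Figure D4:**
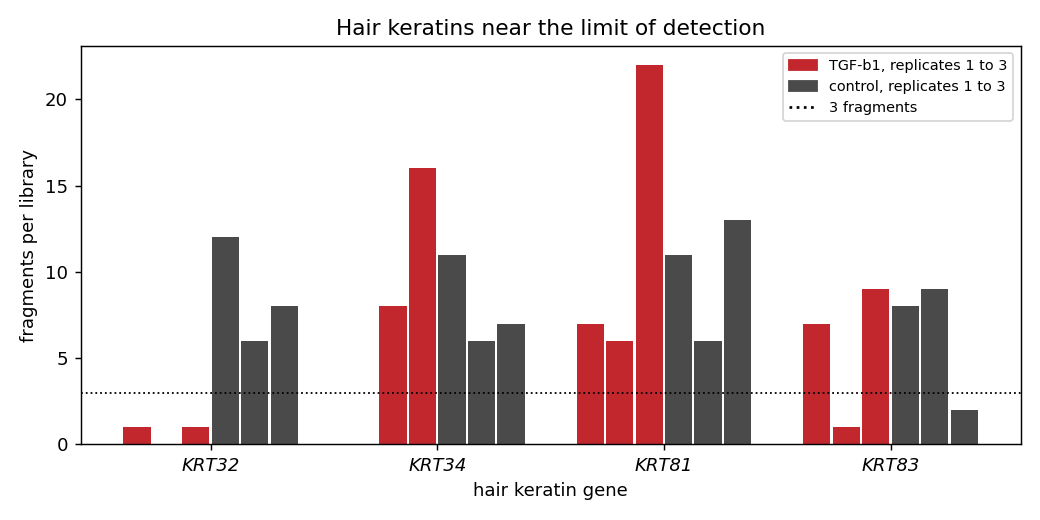
Fragments per library of the 4 hair keratins under the filter that averaged at least 0.1 FPKM in a group, TGF-b1 replicates 1 to 3 in red and then control replicates 1 to 3 in dark grey, with a dotted line at 3 fragments. KRT32 has 0 or 1 in TGF-b1 and 6 to 12 in control libraries, and the groups of KRT34, KRT81 and KRT83 overlap.

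Relatives of the keratins were mostly silent. Of 147 keratin pseudogene rows 38 had a fragment and 3 passed the filter: KRT87P, KRT8P12 and KRT8P3. KRT8P12 stood at 1.72 ± 0.446 FPKM with TGF-b1 and 1.49 ± 0.266 FPKM in control, and KRT8P3 at 1.11 ± 0.330 and 1.63 ± 0.167 FPKM (SD, n = 3, adjusted p = 0.57 and 0.16). Of 112 rows of keratin-associated proteins, matrix proteins of the hair shaft, 7 had a fragment. KRTAP2-3 was the highest, at 2.51 ± 0.630 FPKM with TGF-b1 and 2.87 ± 0.363 FPKM in control (adjusted p = 0.48), followed by KRTAP2-4 and KRTAP5-9 at means under 1 FPKM. The antisense RNA KRT7-AS, whose exons cover 282 bases of KRT7, stood at 1.07 ± 0.376 and 1.22 ± 0.317 FPKM in TGF-b1 and control libraries (adjusted p = 0.68).

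Genes that work with keratins were read from 5 lists of 98 genes, 52 of them tested. In all, 1 rose and 4 fell, where 1.14% of all genes tested were called higher and 1.29% lower. The lists were compiled with earlier results of these libraries known, so their counts are no independent evidence.

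Of 12 tested genes of desmosomes and hemidesmosomes 0 rose and 2 fell, beside 1.14% higher and 1.29% lower over all genes, with a median log2 change of 0.04. PPL, the plakin periplakin that binds KRT8 filaments, fell to 5.71 ± 0.874 FPKM with TGF-b1, against 12.4 ± 0.538 FPKM in control (log2 change -1.01, SE 0.11, adjusted p = 0.00091), and the call held whichever library was left out. ITGB4, the hemidesmosomal integrin subunit that holds keratins through plectin, had a log2 change of -0.52 (adjusted p = 0.026), a call lost without TGF-b1 1, TGF-b1 3, control 1 or control 2 or once the GC and length trend was taken out (0.090). The related plakin EVPL stood at 1.63 and 2.22 FPKM in TGF-b1 and control libraries (adjusted p = 0.20), and the desmosomal cadherin DSG2 at 34.6 and 28.0 FPKM (0.14, and 0.014 without control 3). Without control 3, 12.4% of all genes were called higher. With the GC and length trend removed the adjusted p of DSG2 was 0.19.

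Of 15 tested genes that bind, modify or chaperone keratins 1 rose and 0 fell, beside the same 1.14% and 1.29% over all genes, with a median log2 change of -0.03. A single call among so few genes cannot be read against those shares. TGM2, a transglutaminase, had a log2 change of 0.60 (adjusted p = 0.014). The call was lost without TGF-b1 2, TGF-b1 3 or control 1. STUB1, a chaperone-linked ubiquitin ligase, stood at 17.8 FPKM with TGF-b1 and 29.1 FPKM in control (adjusted p = 0.086), and SFN, the 14-3-3 sigma protein of epithelia, at 121 and 188 FPKM (0.070). Both were past the threshold without control 3 (0.0086 and 0.010). HSPB1, a small heat shock protein that associates with keratin filaments, stood at 271 and 354 FPKM in TGF-b1 and control libraries (adjusted p = 0.13, and 0.018 without control 3).

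None of the 5 other intermediate filament genes tested passed in limma, with a median log2 change of -0.10. At an unadjusted p under 0.05 there were 3, against 25.1% of all genes. Without control 3, 2 passed, LMNA and LMNB1, where 28.9% of all genes were called in either direction. LMNA, which encodes the A-type nuclear lamins, stood at 83.3 FPKM with TGF-b1 and 115 FPKM in control (adjusted p = 0.093), LMNB1 at 60.8 and 51.6 FPKM (0.17) and BFSP1, a lens filament gene, at 1.44 and 2.12 FPKM (0.13).

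Of 19 transcription factors known as regulators of keratin or epithelial genes 0 rose and 2 fell. Over all genes 1.14% were called higher and 1.29% lower. The median log2 change of the 19 was -0.16. KLF4 and FOSB, among the 19 and not called, reached 1 FPKM in the control libraries only. They entered through the group in which they are high, and the median must be read with that in mind. FOSL1, an AP-1 subunit, fell to 72.5 ± 2.69 FPKM with TGF-b1, against 120.4 ± 6.48 FPKM in control (SD, n = 3, log2 change -0.72, adjusted p = 0.0030), and the call held whichever library was left out. CEBPB, a C/EBP factor active in epidermal differentiation, fell to 46.4 ± 4.50 FPKM, against 85.6 ± 17.7 FPKM in control (log2 change -0.85, adjusted p = 0.014), a call lost without control 1 (0.060). With the GC and length trend removed the log2 change was -0.47 for FOSL1 and -0.50 for CEBPB, both past the threshold (0.0065 and 0.0061). Among other AP-1 subunits, JUNB stood at 31.9 and 24.2 FPKM in TGF-b1 and control libraries (adjusted p = 0.13, but 0.0017 once the same trend was taken out) and JUN at 59.9 and 76.3 FPKM (0.11, and 0.036 without control 3). Without control 3, 16.5% of all genes were called lower, and with that trend removed the adjusted p of JUN was 0.19. Of 17 genes of the cornified envelope 1, CNFN, was tested, at 1.37 and 1.22 FPKM (adjusted p = 0.81).

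**Figure D5:**
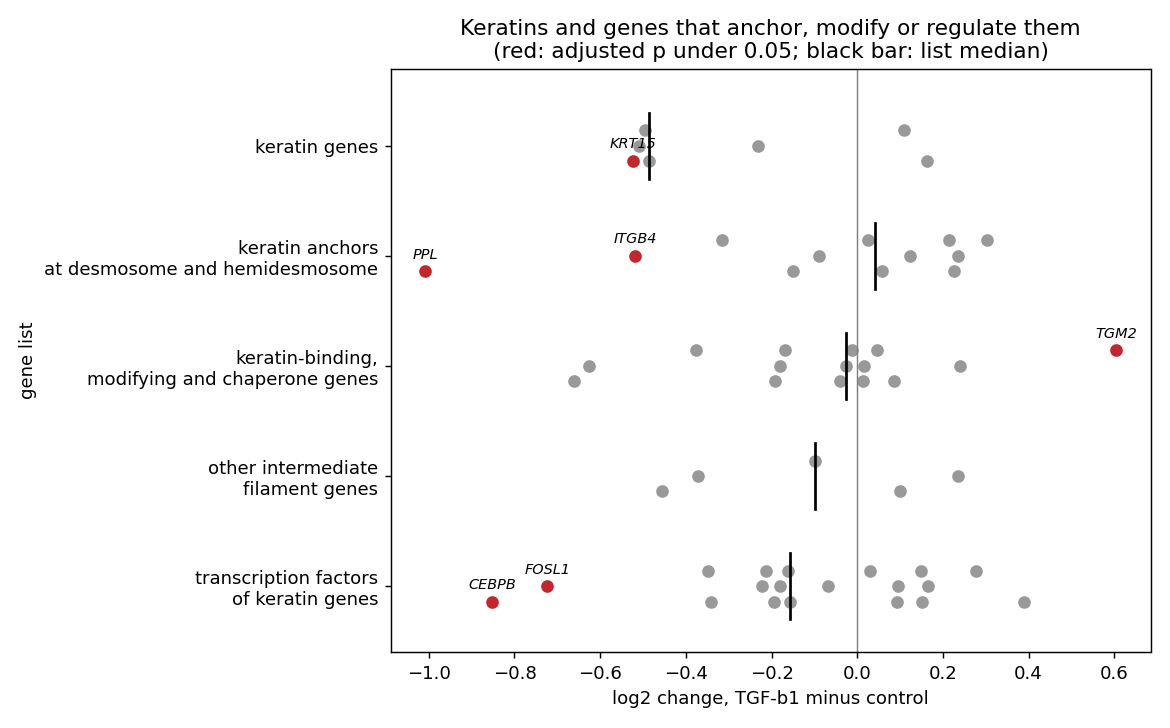
Log2 change, TGF-b1 minus control, of the 7 keratins past the filter and of the tested members of 4 partner lists, 1 point a gene, red where the adjusted p is under 0.05, with a black bar at each list's median. PPL, ITGB4, CEBPB, FOSL1 and KRT15 lie left of 0 in red, and TGM2 right of it.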

How the data were processed

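The submitters' processing notes name HISAT2 2.0.5, featureCounts 1.5.0-p3 and the build hg38; the strand setting and annotation release are not stated there. The deposited values are FPKM, per the file headers. A table of all 6 libraries and the file of each library differed in 0 cells. The first 11 rows hold mapping totals and were left out.

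GENCODE release 29 exon lengths were matched by symbol. FPKM times length gave whole fragments, to within 0.05, for 100% of 98051 values under 1000 fragments. Libraries within a group differed by 6.08 to 26.2 chi-square per degree of freedom, where sampling noise alone gives about 1, so none was a duplicate. limma 3.58.1 in R 4.3.3 was fitted with trend and robust estimation and treatment as the only term, and was tested on simulated data. The simulated noise was independent between genes and libraries, so it cannot show the error rate where a whole library shifts. For left-out libraries the same genes were kept. Keratins past the filter, and others at 0.1 FPKM or more in a group mean, were named. Up to 4 members a partner list were named, those called first and then by size of change, and the 3 highest pseudogenes and keratin-associated proteins. Members, lists and settings were chosen with earlier results of these data known. Removal of the GC and length trend and scaling to total fragments, and shares per coding transcript, were added after seeing the data. A gene of the partner lists is not reported here and enters no count of them.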

Additional observations from a re-analysis of the deposited data

How the results depend on the processing

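The direction of each of the 7 tested keratins was the same in every alternative in which it could be fitted. With all libraries 0 keratins were called higher and 1 lower. No filter on low genes called 0 lower, and at a minimum of 5 FPKM the 1 called was KRT18. Upper-quartile scaling, quantile normalization, scaling to total fragments and the replicate block each called 2 lower (4.56% of all genes with the block), and voom and protein-coding genes alone each called 4. KRT15 was among those called in each of these fits. With the GC and length trend removed 1 was called higher. Leaving out 1 library gave 0 to 5 lower. Of the partner genes 1 was called higher and 4 lower. Without a filter both counts were 0. With the GC and length trend removed 3 were higher, where 2.56% of all genes were. With the replicate block, voom and protein-coding genes alone 7, 9 and 8 were lower, where 4.56, 5.83 and 5.47% of all genes were. Leaving out 1 library gave 0 to 7 higher and 2 to 12 lower. Both counts were highest without control 3, where 12.4% of all genes were called higher and 16.5% lower. The cause of these shifts was not tested. Over all genes the count of calls, 277, was 15 without a filter, 500 at a minimum of 5 FPKM, 767 with the replicate block, 1054 by voom, 842 over protein-coding genes, 501 with the trend removed and 124 to 3280 with 1 library left out. KRT86 and KRT15 could not be fitted at a minimum of 5 FPKM. The replicate numbers were not taken as pairs: deviations of same-numbered libraries correlated by 0.254, -0.0715 and 0.170 across genes, and not every library correlated best with its own number. The difference of the log2 ratio of KRT18 to KRT8, TGF-b1 minus control, was -0.29 to -0.20 with 1 library left out. It was -0.26 with pseudogene rows added. Depth limits how low a level or how small a change could be seen in the 48 keratins under the filter, 35 of which had 0 fragments.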
